A study of Mus musculus with 6 samples.

Results

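Head mesenchyme and neural crest factors were examined here in dissected mouse forebrain, that is, genes of the tissues that lie around the brain rather than of the brain itself. The set holds 9 genes of 18194 named on the array: Twist1, Prrx1, Alx1, Alx4, Foxc1, Foxc2, Pdgfra, Tfap2a and Tfap2b. They were chosen by name as cranial mesenchyme and neural crest genes, and all 21 probe sets that name 1 of them alone were read. Embryos labelled Fezf1-/- Fezf2-/- (called knockout below) were compared with wild-type embryos on embryonic day 9.5 (E9.5), on day 10.5 (E10.5) or on day 12.5 (E12.5). Each of the 6 combinations of genotype and age was measured on 1 Affymetrix array. The piece taken by hand was the rostral forebrain, cut behind the lateral ventricles. The sources used here state neither the strain nor how many embryos went into an array, and no array has a replicate.

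The head mesenchyme is loose tissue that fills the space between the forebrain and the skin. In front of the midbrain it comes largely from neural crest, cells that leave the dorsal edge of the neural tube and migrate, and it later forms the facial skeleton, the frontal skull and the meninges over the forebrain. Twist1, Prrx1, Alx1, Alx4, Foxc1 and Foxc2 are transcription factors of this mesenchyme, Pdgfra is a surface receptor on it, and the AP-2 factors Tfap2a and Tfap2b act in neural crest and also in surface ectoderm.

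The arrays were not on a common scale, with a trimmed mean signal between 74.3 and 162, so log2 differences below were taken after quantile normalization, while signals are printed as deposited. Signal is not comparable between probe sets, only between arrays for 1 probe set. Fezf2 fell by 4.32 ± 0.28 in the knockout (limma's mean log2 difference over the 3 ages with its moderated SE, adjusted p = 8.2e-04), the direction the labels give. Fezf1 had deposited signals of 86.3, 56.1 and 79.1 in knockout and 227, 89.3 and 225 in wild type in age order (E9.5, E10.5, E12.5), and fell by 1.27 ± 0.17 (adjusted p = 0.0440). Its signal was thus lower but still above 22.5, the median of all deposited values, in the knockout, and whether its probe set lies in the deleted part is not given in the files. The neural progenitor factor Sox2 was bright on every array, at 1747, 1309 and 3701 in knockout and 1881, 1395 and 2841 in wild type, and so went with the neural tissue label. Sox2 is 1 of 9 tested neural progenitor genes, whose median log2 differences were 0.06, -0.38 and 0.08, with 5 higher and 4 lower at E9.5. Some were less even between genotypes, with Nes at 1.25, -0.385 and 0.25 and Hes5 at 1.69, 1.18 and -0.20.

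All 9 factors stood higher in the knockout at E9.5, and 7 of 9 stood lower in the knockout at E12.5. The median log2 difference, knockout minus wild type, was 0.27, 0.12 and -0.37 in age order, with 7 of 9 higher at E10.5. Over all 11097 tested genes the same median was 0.01, -0.01 and 0.02, with 52.8% of genes higher in the knockout at E9.5, 47.6% higher at E10.5 and 46.4% lower at E12.5. With age, 8 of the 9 factors fell, in wild type by at least 3.23-fold between E9.5 and E12.5. In these bulk samples fewer mesenchymal cells in the piece and less RNA per cell cannot be told apart.

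**Figure D1:**
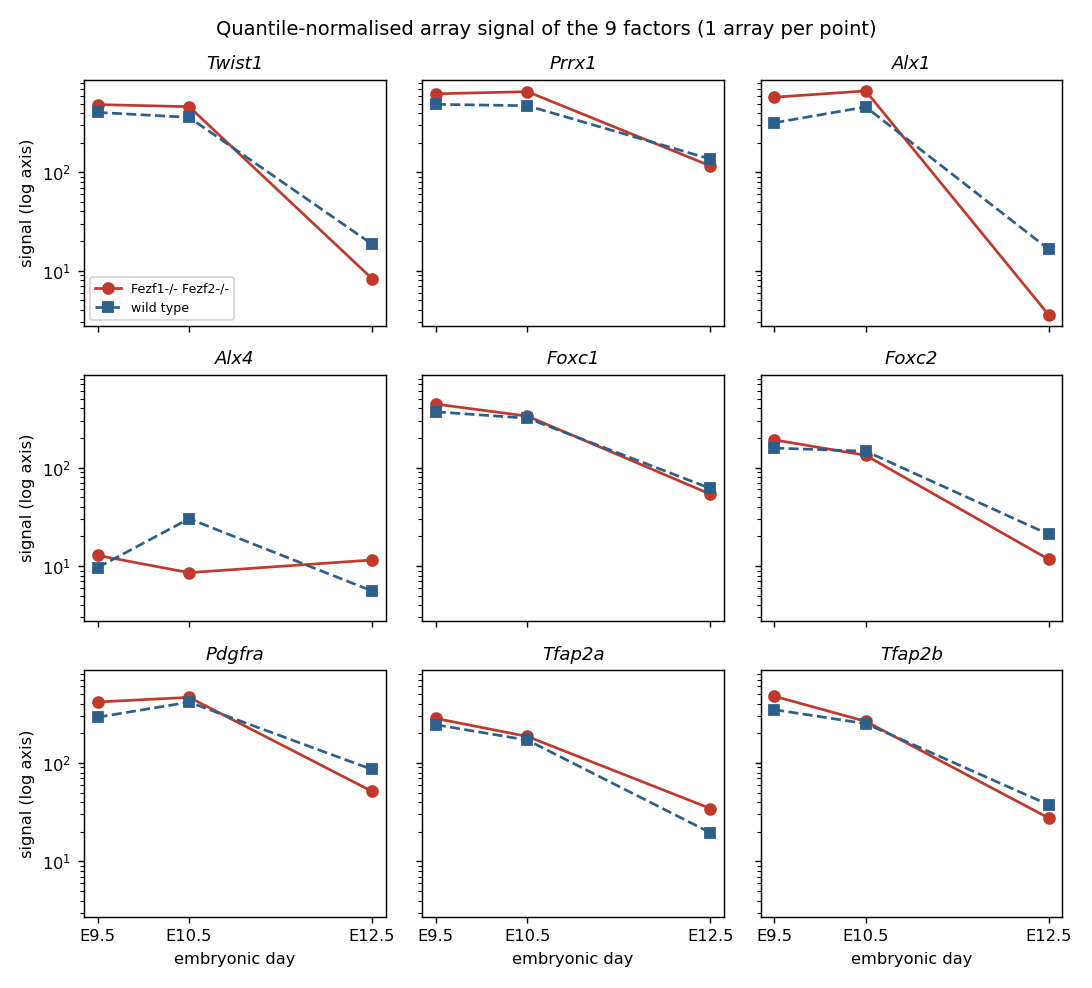
Quantile-normalised signal (log axis) of each factor against embryonic day, 1 array per point, with the knockout as red circles and wild type as blue squares. In 8 panels both lines drop between E10.5 and E12.5, and in 7 of these the knockout starts above wild type at E9.5 and ends below it, while in the Tfap2a panel it stays above; Alx4 is dim throughout.

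Twist1, a basic helix-loop-helix factor needed for cranial mesenchyme, had deposited signals of 494, 373 and 12.0 in knockout and 378, 233 and 25.2 in wild type, in age order. The 4 earlier arrays were all bright and both E12.5 arrays were dim, and the genotypes crossed in between. On the log2 scale the knockout minus wild-type difference was 0.26, 0.36 and -0.76 in age order. From E9.5 to E12.5 it fell by 4.55 ± 0.24 across both genotypes (limma moderated SE, adjusted p = 1.16e-06). Over the alternatives this change lay between -5.05 and -3.72. The window around its transcription start (RefSeq, GRCm38.p6, chr12:33957421-33957720, plus strand) is shown as an example of a promoter of the set that is rich in G and C (66.0%). Capitals mark a match to the letters TATAAA, and whether it acts as a TATA box was not tested:
Twist1: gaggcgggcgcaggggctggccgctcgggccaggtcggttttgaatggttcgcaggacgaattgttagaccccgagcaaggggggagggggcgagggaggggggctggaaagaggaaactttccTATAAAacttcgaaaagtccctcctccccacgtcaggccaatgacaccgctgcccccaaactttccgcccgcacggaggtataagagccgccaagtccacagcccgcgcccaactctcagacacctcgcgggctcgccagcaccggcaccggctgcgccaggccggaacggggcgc

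Prrx1, a paired-type homeobox factor of limb and head mesenchyme, had deposited signals of 652, 544 and 179 in knockout and 465, 309 and 181 in wild type. Both E12.5 arrays lay below all earlier ones and were close to each other. Knockout minus wild type came to 0.35, 0.47 and -0.22 on the log2 scale, the last within -0.23 to -0.01 over the other scalings, pseudocounts and probe-set rules. Prrx1 fell by 2.08 ± 0.16 from E9.5 to E12.5 (limma adjusted p = 6.72e-06).

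Alx1, an aristaless-type homeobox factor of frontonasal mesenchyme, showed the widest swing between genotypes. Its deposited signals were 602, 555 and 5.16 in knockout and 291, 300.3 and 22.1 in wild type. At both earlier ages the knockout array was the brighter, and at E12.5 both were under the median of all deposited values (22.5). Its log2 differences were 0.85 (1.80-fold higher in the knockout), 0.53 and -1.20 in age order. The last of these ran between -1.94 and -0.58 over the alternatives, the smaller size with the larger pseudocount. From E9.5 to E12.5 it fell by 4.84 ± 0.39 across both genotypes (limma adjusted p = 8.35e-06). The knockout E12.5 signal lay below the pseudocount of 6.50, and over the alternatives this change lay between -5.59 and -3.69.

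Alx4, a related homeobox factor of frontonasal and limb mesenchyme, was the exception. Its single probe set had deposited signals of 12.3, 5.85 and 17.0 in knockout and 9.38, 17.4 and 7.055 in wild type, none of them as high as 22.5. It did not pass the filter on dim genes and was not tested. Its log2 differences were 0.26, -1.29 and 0.58, and the E10.5 value was the only one in the set counted as 2-fold, with a normalised wild-type signal of 30.3. On the deposited values Alx4 was not counted, and its early and late arrays overlapped.

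The forkhead factors Foxc1 and Foxc2, which act together in head and paraxial mesenchyme and in the meninges, were both bright at E9.5. Foxc1 had deposited signals of 444, 264 and 86.0 in knockout and 341, 202 and 87.7 in wild type. Foxc2 had 181, 101 and 17.3 in knockout and 138, 91.8 and 28.8 in wild type. The knockout was above wild type at E9.5 for both, and at E12.5 it was below wild type for both. The differences were 0.26, 0.07 and -0.18 for Foxc1 and 0.27, -0.13 and -0.60 for Foxc2. The E10.5 value of Foxc2 turned to 0.14 on the values as deposited, where the median of all tested genes was itself 0.26. Foxc1 fell by 2.68 ± 0.14 from E9.5 to E12.5 (limma adjusted p = 1.04e-06). Foxc2 fell by 3.01 ± 0.22 (adjusted p = 5.46e-06).

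Pdgfra encodes the receptor for platelet-derived growth factor A and C ligands, which neural crest mesenchyme needs in the face. Its deposited signals were 419, 374 and 82.2 in knockout and 266, 267 and 119 in wild type. The knockout was brighter at the first 2 ages and dimmer at the last. The log2 differences were 0.50, 0.16 and -0.67 in age order, and Pdgfra fell by 2.28 ± 0.23 between E9.5 and E12.5 (limma adjusted p = 3.27e-05). The fall was 7.31-fold in the knockout and 3.23-fold in wild type.

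The AP-2 genes parted at the last age. Tfap2a, an inducer of neural crest, had deposited signals of 277, 144 and 54.9 in knockout and 221, 107 and 26.7 in wild type, brighter in the knockout at every age. Tfap2b, its close relative in neural crest and its derivatives, had 481, 208 and 43.2 in knockout and 320.2, 159 and 54.1 in wild type, and turned. The differences of Tfap2a were 0.21, 0.12 and 0.65, and those of Tfap2b 0.45, 0.07 and -0.37. With probe sets averaged, the E9.5 value of Tfap2a was -0.14. These were also the only factors with a tested decline already between E9.5 and E10.5, where Tfap2a fell by 0.55 ± 0.18 and Tfap2b fell by 0.65 ± 0.19 (limma adjusted p = 0.0444 and 0.0319, with 14.9% of tested genes passing downward). From E9.5 to E12.5 Tfap2a fell by 3.05 ± 0.18 and Tfap2b fell by 3.42 ± 0.19 (adjusted p = 1.56e-06 and 1.36e-06). Promoter windows of this pair are shown because the genes parted, with the homeodomain core TAAT, read on both strands (TAAT or ATTA, overlapping matches counted separately), in capitals. The Tfap2a window is chr13:40734871-40735170 (minus strand) and the Tfap2b window chr1:19211804-19212103 (plus strand), both RefSeq, GRCm38.p6:
Tfap2a: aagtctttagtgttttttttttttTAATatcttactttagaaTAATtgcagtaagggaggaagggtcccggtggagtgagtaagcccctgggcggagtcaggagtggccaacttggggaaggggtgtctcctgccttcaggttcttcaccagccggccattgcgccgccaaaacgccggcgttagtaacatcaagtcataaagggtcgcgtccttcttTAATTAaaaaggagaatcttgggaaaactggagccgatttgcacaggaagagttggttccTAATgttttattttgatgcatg
Tfap2b: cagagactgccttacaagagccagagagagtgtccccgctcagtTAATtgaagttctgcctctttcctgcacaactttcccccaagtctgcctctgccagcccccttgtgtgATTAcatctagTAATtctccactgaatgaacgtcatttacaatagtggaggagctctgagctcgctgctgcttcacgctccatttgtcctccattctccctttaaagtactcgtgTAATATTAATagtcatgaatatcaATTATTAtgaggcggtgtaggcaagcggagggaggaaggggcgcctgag
The Tfap2a window holds 5 matches and the Tfap2b window 8, where 6.86% of all 32851 windows of this length hold at least 5 and 1.47% at least 8. The other Tfap2a window of the table, not printed, holds 3. Such matches are descriptions of letters and not binding sites.

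The RefSeq table held windows for 6 of the 9 factors, 7 windows in all with 2 for Tfap2a, and none for Alx1, Alx4 and Foxc2. At least 1 TAAT was in 5 of the 7 windows (58% of all windows). An E-box (CANNTG, the site type of Twist1 and its relatives) was in 2 of 7, those of Pdgfra and Tfap2b (72.3% of all). The AP-2 site GCCNNNGGC was in the Foxc1 window alone (16.6% of all), and TATAAA in that of Twist1 alone (13.6% of all). No motif of these 4 was common to the 7 windows.

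The question of how age changed the factors was tested with both genotypes as repeats. All 8 tested factors fell from E9.5 to E12.5, with log2 changes between -4.84 and -2.08, and each passed limma at an adjusted p of 0.05, where 37% of tested genes fell and 25.7% rose. The step from E10.5 to E12.5 also passed for each of the 8, between -5.21 and -2.10 (30% of tested genes fell), while the step from E9.5 to E10.5 lay between -0.65 and 0.37. In each of the 8 all 4 arrays of E9.5 and E10.5 were above both E12.5 arrays, as they were for 37.3% of tested genes. Genes entered these tests by a mean log2 value over the 6 arrays above 4.884. Twist1, Alx1 and Foxc2 lay below that value on both E12.5 arrays and entered through their bright earlier arrays. Alx4, dim at every age, was left out, so the fall of all tested factors depends in part on the filter. Without the filter the number of factors that fell was also 8. Across the 6 arrays the 28 pairs among these 8 factors correlated with a Pearson r between 0.912 and 0.998 (median 0.982), and Alx4 correlated with them at 0.33 to 0.41. These correlations are descriptions over 6 arrays that share the step in age.

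RNA quality and scale moved with age as well. The ratio of the 3′ to the 5′ actin control probe sets was 3.21 in knockout and 3.12 in wild type at E9.5, 1.59 and 1.84 at E10.5, and 1.45 and 1.44 at E12.5. That of Gapdh stayed between 0.823 and 0.949 on all arrays. The part of RNA quality in the fall was not tested. The fall passed in all 8 factors under each of the 8 other settings tried for it.

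The second comparison asked whether a factor differed between genotypes over the 3 ages as a whole. None of the 8 tested factors passed (limma adjusted p of 0.999 or more), with 0.0721% of tested genes past the threshold. Mean differences lay between -0.15 ± 0.18 for Foxc2 and 0.33 ± 0.14 for Tfap2a, the factor that was higher in the knockout at every age (moderated SE over 3 pairs). A sign-flip permutation of 3 pairs cannot go below an exact two-sided p of 0.25, so no single factor could be tested that way.

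**Figure D2:**
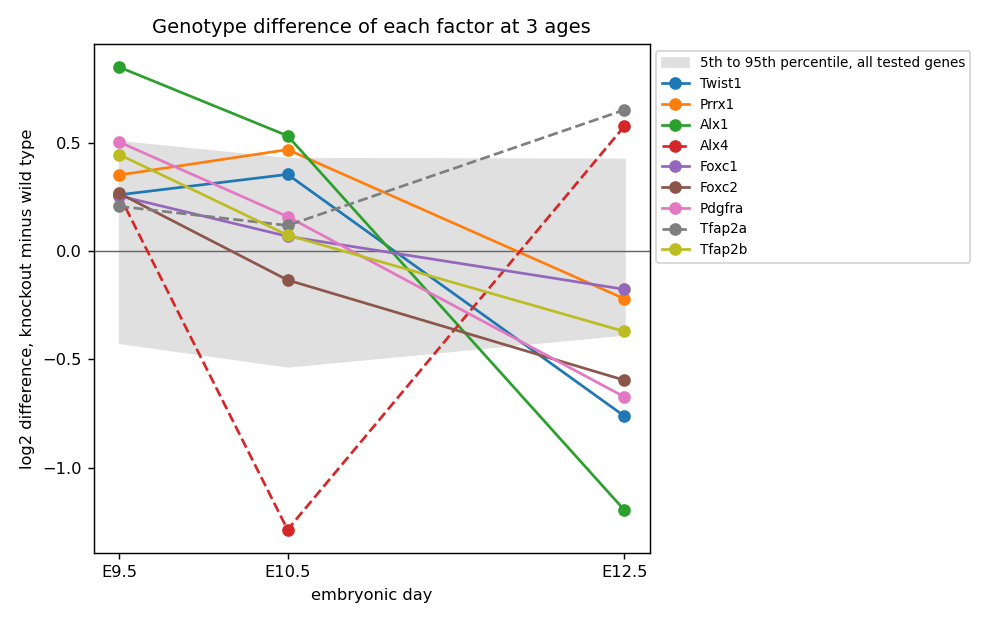
Knockout minus wild-type log2 difference of each factor (vertical axis) against embryonic day, 1 pair of arrays per point, with the 5th to 95th percentile of all tested genes as a grey band. Solid lines are the 7 factors that start above 0 at E9.5 and end below it at E12.5, and dashed lines are Tfap2a and Alx4, which end at 0.65 and 0.58.

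A further comparison tested whether the genotype difference shifted with age, as a linear change per embryonic day. In 7 of the 8 tested factors the slope was negative: -0.71 ± 0.11 per day for Alx1, -0.40 ± 0.08 for Pdgfra, -0.37 ± 0.11 for Twist1, -0.28 ± 0.12 for Foxc2, -0.27 ± 0.09 for Tfap2b, -0.21 ± 0.09 for Prrx1 and -0.14 ± 0.09 for Foxc1. Tfap2a had a slope of 0.17 ± 0.11. By its p-value Alx1 ranked 5 and Pdgfra 24 among 11097 genes, but none passed after adjustment (limma adjusted p = 0.362 for Alx1, 0.722 for Pdgfra and 0.999 for the other factors). In this fit 0 genes of all tested passed, 0% of them, with 406 at an unadjusted p under 0.05. On the values as deposited Alx1 passed with a slope of -0.82 (adjusted p = 2.43e-07), in a fit whose moderated degrees of freedom were 4099 against 7.86 here. It passed in no other setting tried.

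At a single age there is 1 array per genotype and no test. A 2-fold difference with the brighter signal above 22.5 was seen in no factor at E9.5, where 0.694% of tested genes were that much higher and 0.469% that much lower in the knockout, and in none at E12.5 (0.378% higher and 0.243% lower). At E10.5 only the dim Alx4 met it, lower in the knockout (0.811% of tested genes were that much lower and 0.424% that much higher). Of all tested genes 5% lay above 0.51 at E9.5, which only Alx1 exceeded, and 5% below -0.38 at E12.5, where Alx1, Twist1, Pdgfra and Foxc2 lay. Tfap2a and Alx4 lay above the upper 5% point of 0.43 at that age. The normalised signals of Alx1, Twist1, Foxc2 and Alx4 were under 22.5 on both E12.5 arrays. The 2-fold rule could therefore not count these factors at E12.5, and their differences there are between dim signals. Alx1 was 2.29-fold lower in the knockout at E12.5 but went uncounted for this reason. The combination of higher at E9.5 and lower at E12.5 was found in 7 of the 9 factors and in 24.6% of tested genes, and with higher at E10.5 as well in 6 of the 9 and in 11.8%.

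The separate probe sets of the factors were compared next. Of the 21, the knockout was higher in 19, 18 and 6 in age order, and 14 were higher at E9.5 and lower at E12.5. The share of all probe sets with these directions was not counted. By gene, 52.8% of those tested were higher at E9.5, 47.6% higher at E10.5 and 46.4% lower at E12.5. Both higher at E9.5 and lower at E12.5 were 24.6%. Probe sets of 1 gene share their transcript and are not independent. The 2 Alx1 probe sets matched at E12.5 (-1.20 and -1.19), and at E9.5 they gave 0.85 and 0.19. The 3 Tfap2a probe sets were all higher in the knockout at E12.5 (0.65, 0.59 and 0.75), while the dimmest of them, below the filter, was -0.78 at E9.5. For Prrx1 all 6 were higher at E9.5 (0.35 to 0.60), but at E12.5 2 of the 5 above the filter were higher in the knockout, at 0.25 and 0.42, and the other 3 lower. The set below the filter was at -0.62. The dimmest Pdgfra set at E12.5 gave -0.44 at E9.5 and 0.93 at E10.5. Of the 18 probe sets above the filter, 17 fell from E9.5 to E12.5 (limma adjusted over all single-symbol probe sets), the exception being the second Pdgfra set at -0.64 ± 0.26 (limma adjusted p = 0.0614). The share of all probe sets that fell was not counted, and by gene 37% of those tested fell.

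**Figure D3:**
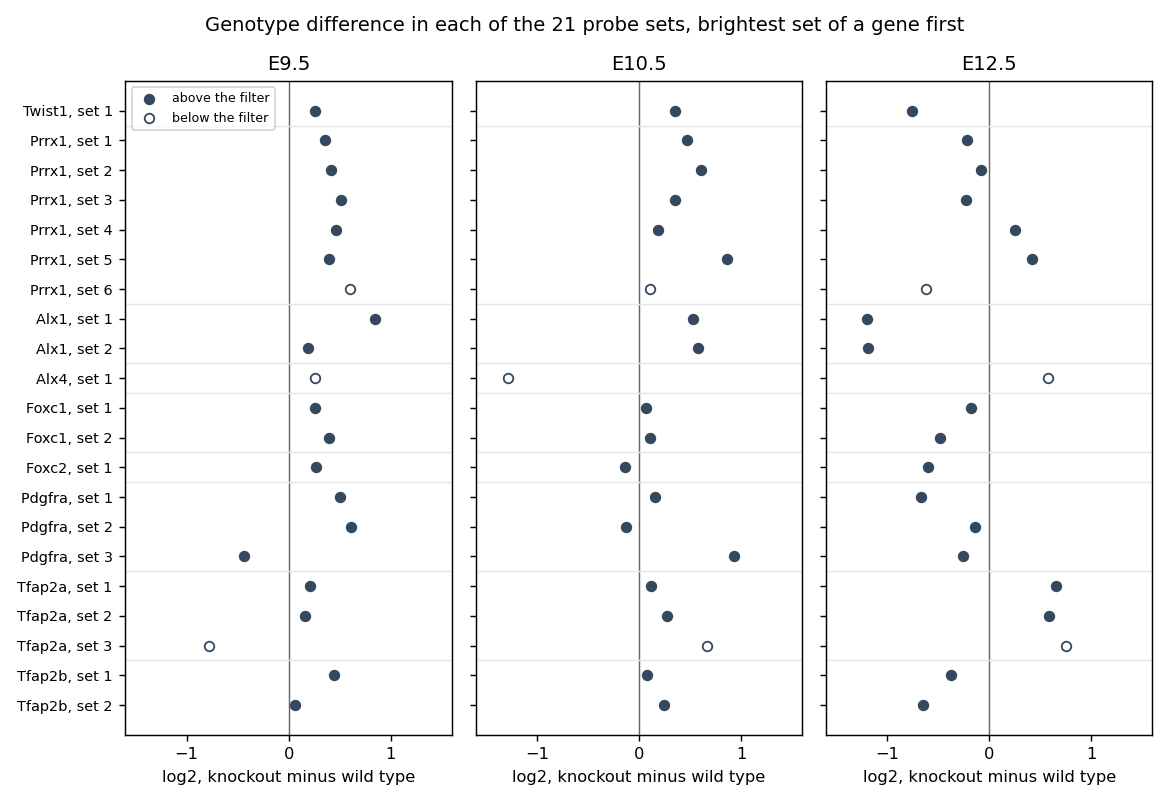
Knockout minus wild-type log2 difference (horizontal axes) of each of the 21 probe sets at the 3 ages, 1 pair of arrays per panel, filled where the probe set passed the filter on dim signal. At E9.5 19 points lie right of 0 and at E12.5 15 lie left of it, with all 3 Tfap2a sets on the right at E12.5.

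Other genes of the same tissues were set beside the 9 factors by list. Of 24 further cranial mesenchyme factors 16 were tested, with 11 higher in the knockout at E9.5 and 11 lower at E12.5 (medians 0.22, -0.25 and -0.32 at the 3 ages). Of all tested genes 52.8% were higher at E9.5 and 46.4% lower at E12.5. Twist2, a relative of Twist1, had deposited signals of 69.8, 95.8 and 12.2 in knockout and 25.4, 74.8 and 32.5 in wild type, so its log2 differences were 1.28, 0.06 and -1.001. Tbx15, a T-box factor of mesenchyme, gave 0.85, 0.43 and -1.25. Foxd1, a forkhead factor also made in the ventral diencephalon, was lower in the knockout throughout (-0.33, -0.56 and -1.32), Foxf1 was at 0.91, -0.39 and -0.20, and Lmx1b, which also marks the roof plate and midbrain, was higher throughout (0.56, 1.03 and 1.02). From E9.5 to E12.5 9 of the 16 fell and 4 rose, where 37% of all tested genes fell and 25.7% rose. The 4 that rose were Dlx5 (by 1.64), Tbx18 (0.83), Zeb2 (0.72) and Zeb1 (0.67). Which cells of the piece these 4 rises came from was not tested. None passed for genotype, against 0.0721% of all tested genes.

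Among 12 neural crest specifiers and derivative genes 8 were tested, and they did not share 1 direction at E12.5, with 4 higher and 4 lower (medians 0.24, 0.09 and 0.12). The zinc-finger factor Snai2 of migrating crest and mesenchyme turned in the direction of most of the 9 factors, with differences of 0.66, 0.27 and -0.93, and Snai1 with 0.11, 0.03 and -0.81. Sox9 (0.34, -0.32 and 0.73) and the endothelin receptor gene Ednrb (0.80, -0.53 and 0.39), both also expressed by neural progenitors, were higher at E12.5. Erbb3 was higher at every age (0.15, 0.25 and 0.43) and Tfap2c lower at every age (-0.36, -0.93 and -0.31). Ets1 was at 0.40, 0.16 and -0.15. Sox10, the factor of crest-derived glia, was dim, at 22.1, 22.9 and 37.9 in knockout and 35.0, 15.0 and 21.8 in wild type. Its differences of -0.63, 0.35 and 0.44 ran opposite to most of the 9 factors at E9.5 and E12.5. With age 4 of these 8 fell and 3 rose, beside 37% and 25.7% of all tested genes.

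Ligands of Pdgfra and related receptors came next. Pdgfa and Pdgfc, its ligands, differed by 0.40, 0.43 and -0.24 and by 0.41, 0.29 and -0.15. Pdgfrb, the receptor of mural cells, differed by 0.48, 0.03 and -0.23. Of the 4 tested genes of this family 3 were higher at E9.5 and all 4 lower at E12.5, with Pdgfb at -0.35, -0.55 and -0.16, and the other 3 fell with age. Among matrix genes of mesenchyme 11 of 12 tested were higher at E9.5 and 10 of 12 lower at E12.5 (medians 0.30, -0.12 and -0.49). Of all tested genes 52.8% were higher at E9.5 and 46.4% lower at E12.5. Col1a1 was at 0.34, -0.12 and -0.77, and Lox at 0.67, -0.11 and -0.85. Dcn was at 0.56, -0.18 and -0.47, and Postn at 0.02, 0.02 and -0.80. The 2 matrix genes higher at E12.5 were Col5a1 (0.38) and Vim (0.11). With age 6 of the 12 fell and 2 rose (37% and 25.7% of all tested genes), and Dcn rose by 1.96 ± 0.31 (limma adjusted p = 5.08e-04). Only 4 of 10 meninges and pericyte genes were tested, with medians of 0.24, 0.00 and -0.28 and 3 of 4 lower at E12.5. Cxcl12, a chemokine of the meninges, was at 0.21, -0.37 and -1.03. The pericyte genes Rgs5 and Abcc9 were at 0.62, 0.39 and -0.08 and at 0.14, 0.37 and -0.47, and Bgn, a matrix proteoglycan, was at 0.26, -0.37 and 0.07.

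**Figure D4:**
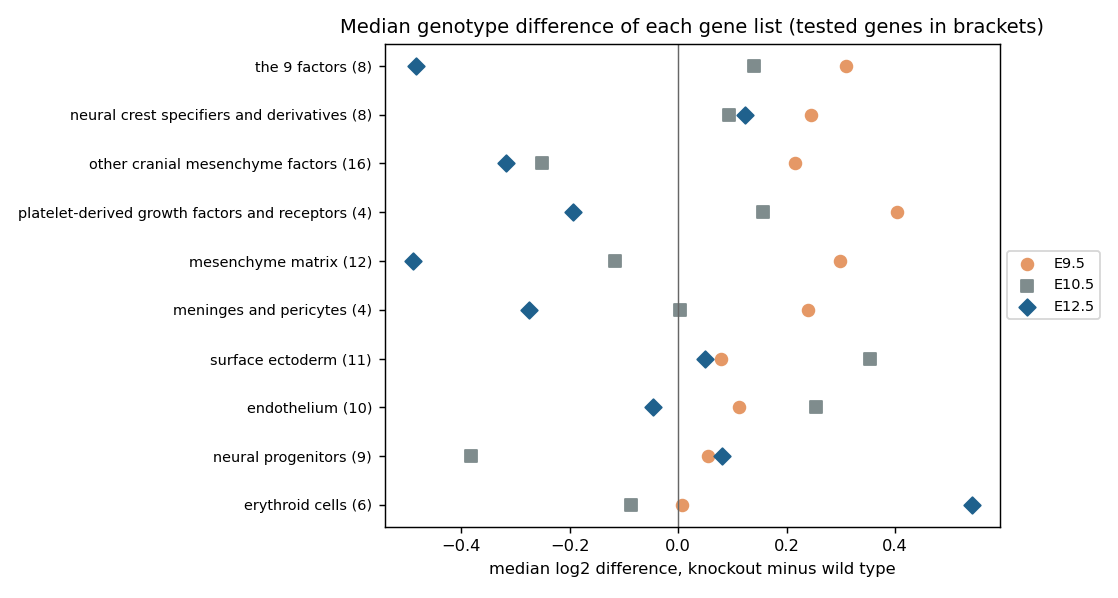
Median knockout minus wild-type log2 difference of each gene list (horizontal axis), by age, over the tested genes of the list (number in brackets). The 8 tested factors stand at 0.31 at E9.5 and -0.48 at E12.5 and the matrix genes at 0.30 and -0.49, whereas the surface ectoderm, endothelium and neural progenitor medians lie between -0.05 and 0.11 at those ages.

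Markers of other tissues did not all take this course. Surface ectoderm genes had medians of 0.08, 0.35 and 0.05 and were higher in 9, 10 and 7 of 11 tested genes, with Trp63, the factor of stratifying epithelium, at 73.5, 89.9 and 10.7 in knockout and 32.6, 52.9 and 10.2 in wild type (log2 differences of 1.01, 0.42 and -0.07). Like the factors they fell with age, 10 of 11 of them (37% of all tested genes fell), and their summed normalised signal was 2218, 2020 and 181 in knockout and 1937, 1546 and 183 in wild type. The corresponding sum over the 9 factors was 3518, 3186 and 318 in knockout and 2636, 2630 and 403 in wild type. Both sums were lowest on the E12.5 arrays, as were those of the platelet-derived growth factor, endothelial and erythroid lists. The sums of matrix, neural crest and neural progenitor genes were lowest at E9.5 in both genotypes. That of matrix genes was 7696, 8647 and 8171 in knockout and 6421, 9800.5 and 8722 in wild type. That of neural crest genes was 1419, 1432.5 and 1617 in knockout and 1163, 1512 and 1351 in wild type. Further cranial mesenchyme factors and meninges and pericyte genes were lowest at E12.5 in knockout and at E9.5 in wild type. Bright probe sets dominate such sums. In the matrix list Vim, the brightest tested gene, rose by 0.90 ± 0.11 from E9.5 to E12.5 (limma moderated SE). Of the 12 tested genes of that list 6 fell and 2 rose. In the neural crest list Ednrb rose by 3.07 ± 0.26 and Sox9 by 1.49 ± 0.21, where 4 of 8 tested genes fell and 3 rose. These 2 sums therefore do not show the course of most genes in their lists. Endothelial genes, with medians of 0.11, 0.25 and -0.05, summed to 949, 1089 and 642 in knockout and 866, 949 and 644 in wild type. Erythroid genes were higher in the knockout at E12.5 in 6 of 6 tested (median 0.54). They summed to 23679, 27532 and 17439 in knockout and 23192, 27784 and 13968 in wild type. No list member passed for genotype, and none of these lists had a gene with a signal of exactly 0. How far surface ectoderm entered the Tfap2a and Tfap2b values was not tested.

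The genes whose 6-array course was most like the mean course of the 8 tested factors were taken from 4326 genes with a range of at least 1 on the log2 scale. They were Utrn (utrophin), Kank2, Vasn, Ska1, Mmp2, Igfbp3, Perp, Tril, Eno3 and Inka1, with Pearson r of at least 0.998 over 6 arrays. Mmp2, a matrix metalloproteinase, had deposited signals of 213, 149 and 83.3 in knockout and 176, 117 and 88.9 in wild type. Vasn, a membrane protein that binds TGF-beta, had 476, 333 and 68.4 in knockout and 337, 208 and 74.0 in wild type. Perp, a component of epithelial junctions, had 119.7, 98.2 and 13.4 in knockout and 88.5, 65.3 and 18.1 in wild type. All 10 were higher in the knockout at E9.5 (0.09 to 0.43) and lower at E12.5 (-0.47 to -0.05). They were chosen by likeness to the factors on these same arrays.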

How the data were processed

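Total RNA from 6 forebrain samples was labelled with biotin in a one-cycle in vitro transcription and hybridised, per the labels' protocols. The deposited values are MAS5 signal intensity on a linear scale, made by the authors per the submitters' processing notes. The MAS5 version, any scaling target and detection calls were not stated, so whether a dim value lies above background is unknown.

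Arrays were quantile normalised, and a pseudocount of 6.50 (the deposited values' lower quartile) was added before log2, so folds of dim genes are understated. Of 45101 probe sets, 34958 name 1 gene, 932 several and 9211 none in the platform annotation used. A gene takes its brightest probe set. Of 18194 genes, 11097 were tested, those whose mean log2 value passed the probe set median. The limma package (3.58.1, under R 4.3.3) fitted all 6 arrays, with a variance trend in eBayes: age and genotype as additive terms (2 residual degrees of freedom, 9.21 after moderation), and a genotype by day term (1, and 7.86 after moderation). P-values were Benjamini-Hochberg adjusted over all tested genes, with calls made below 0.05. These p-values reflect the spread among 6 arrays only, and the number of arrays limits precision. The code of the fits was run on simulated arrays with independent noise and planted changes. That run held no shift shared by the genes of an array, so it cannot speak to such shifts here. At a single age, genes at least 2-fold apart with the brighter normalised signal above 22.5, the median of all deposited values, were counted. The alternatives tried were 2 other scalings, 2 other pseudocounts, all probe sets averaged, no filter, no variance trend, no block, each age pair left out, and a 1.5-fold rule.

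The members and gene lists were chosen with earlier results of these data known. The rule for naming further genes took up to 3 per list with the largest difference at E9.5 and at E12.5, and the 10 genes most like the mean of the tested members, leaving out clone names. Some genes were named outside this rule, among them Sox2, Vim, Erbb3 and Zeb1. Promoter windows run from 250 bases before to 50 after a start in RefSeq GRCm38.p6, and motifs were searched on both strands.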

Additional observations from a re-analysis of the deposited data

Results flagged for a closer look

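A closer look is warranted at 7 factors, because the knockout array was above wild type at E9.5 and below it at E12.5, opposite directions at 2 ages with 1 pair of arrays each. The E12.5 difference minus the E9.5 difference, on the log2 scale, was -2.05 for Alx1, -1.18 for Pdgfra, -1.02 for Twist1, -0.86 for Foxc2, -0.82 for Tfap2b, -0.57 for Prrx1 and -0.43 for Foxc1. The linear trend of the genotype difference with age, the one test made of this shift, passed for none of them. By sign alone 24.6% of tested genes show the same turn.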

How the results depend on the processing

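The fall of the 8 tested factors from E9.5 to E12.5 kept its direction and its side of the threshold in all 8 alternatives run for it. The count of all genes past the threshold for genotype across ages was 8, and it was 20 on the values as deposited, 2 with a common trimmed mean, 2 with all probe sets averaged, 1 with a pseudocount of 1, 1 without the filter, 0 without a variance trend (544 at an unadjusted p under 0.05), 0 without the age block (24), 72 without the E9.5 pair, 3 without the E10.5 pair and 0 without the E12.5 pair (485). No factor passed in any of these. The mean genotype difference changed sign for Twist1 on deposited values (0.092), with a pseudocount at the median of all values (0.059) and without E12.5 (0.31); for Pdgfra on deposited values (0.20), with a trimmed mean (0.016), that pseudocount (0.029), averaged probe sets (0.065) and without E12.5 (0.33); for Alx1 with a pseudocount of 1 (-0.18), averaged probe sets (-0.039), without E9.5 (-0.33) and without E10.5 (-0.17); for Tfap2b with averaged probe sets (-0.031) and without E9.5 (-0.15); for Foxc1 without E9.5 (-0.053); and for Foxc2 without E12.5 (0.067). The reported differences of these 6 genes lay between -0.15 and 0.06, and the cause was not tested.

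For the change of the genotype difference with age, 13 genes passed on deposited values, 1 factor (Alx1) among them, and 1 gene with a trimmed mean, against 0 otherwise. On deposited values the moderated degrees of freedom were 4099, against 7.86. At E9.5 1 factor was counted as higher on deposited values (Alx1) and 1 by the 1.5-fold rule. At E10.5 0 were counted as lower on deposited values and with the pseudocount at the median, against 1. By the 1.5-fold rule 1 was higher and 1 lower at E12.5. The median difference of the 9 factors kept its sign at each age, between 0.25 and 0.38 at E9.5, 0.11 and 0.40 at E10.5, and -0.46 and -0.26 at E12.5. The linear trend could not be tested with an age pair left out, since no residual degrees of freedom remain. The genotype fit was itself paired by age, with the knockout and wild-type array of each age as a pair. Each group has 1 array, so there were no replicate numbers to pair by.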

Other observations

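The change of the genotype difference with age varied among other mesenchyme and crest genes. The median slope per day was -0.30 over 12 matrix genes, -0.16 over 16 further cranial mesenchyme factors and 0.003 over 8 neural crest genes. Among the steep ones, picked after their values were seen, Snai2 had a slope of -0.54 ± 0.09 per day, Col1a2 -0.39 ± 0.07 and Col3a1 -0.31 ± 0.06 (limma adjusted p = 0.493, 0.650 and 0.650), so none passed. Col5a1 and Sox9, of the same lists, had slopes of 0.15 and 0.19. Col1a2, a chain of type I collagen, had deposited signals of 633, 708 and 343 in knockout and 411, 633 and 486 in wild type, in age order. Col3a1, the type III collagen chain, had 1908, 1749 and 1150.5 in knockout and 1269, 1473 and 1367 in wild type.

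Among embryonic globin genes, Hbb-bh1, an embryonic beta-like globin, had a deposited signal of 3422 in knockout and 1828.5 in wild type at E12.5, a difference of 0.70 after normalization, and Hba-x, an embryonic alpha-like globin, had 5185 in knockout and 2908 in wild type (0.71). Hbb-y, another embryonic beta-like globin, had 11157 in knockout and 9815 in wild type, a difference of 0.098. At E9.5 the differences of Hbb-bh1, Hba-x and Hbb-y were 0.03, 0.13 and -0.01.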
